A study of Homo sapiens with 12 samples.

Results

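The genes described here are 10 amino acid carriers, SLC7A11, SLC3A2, SLC7A5, SLC1A4, SLC1A5, SLC38A1, SLC38A2, SLC7A1, SLC7A2 and SLC6A9. They were chosen by symbol, as the cystine antiporter with its heavy chain and a set of neutral, cationic and glycine carriers of the plasma membrane, from the 55242 genes left in the count tables once rRNA genes were removed. The choice was made with earlier results of these data known. All 10 were found, and all 10 passed the filter on low counts in every comparison. They were measured by RNA-seq in Hs 578T, a triple negative breast cancer cell line, in 12 libraries that form 4 groups of 3. GFP cells, the controls, over-expressed the green fluorescent protein, and NRF2 cells over-expressed full-length NRF2, a transcription factor that drives antioxidant genes. Both populations were made by lentiviral transduction of the same line, so that neither was untransduced, and both were washed and placed for 8 h in a cystine-free medium to which methionine, glutamine and serum had been added back. In the groups with Cyss, 0.8 mM of cystine was added to that medium, and in the groups without Cyss none was added. The labels do not say whether the 3 libraries of a group came from separate cultures, so the p-values measure the spread between these libraries, which may be technical.

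Cystine, the oxidised dimer of cysteine, enters most cultured cells through system xc-, an antiporter that exports glutamate and is built from the light chain SLC7A11 and the heavy chain SLC3A2. SLC3A2 also carries other light chains to the membrane, among them SLC7A5, which exchanges leucine and other large neutral amino acids. Many carrier genes are known targets of ATF4, the factor that accumulates when cells lack an amino acid, and SLC7A11 is a known target of both ATF4 and NRF2.

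The libraries held between 27250993 and 44596870 reads on genes, and every member had at least 1537 normalized counts (reads scaled to a common library size by TMM) in every library. NFE2L2, the gene of NRF2, served as the check of the labels. It had 3647 to 4655 normalized counts in the 6 GFP libraries and 6598 to 8396 in the 6 NRF2 libraries, and every NRF2 library lay above every GFP library. The labels call the line epithelial, whereas 4 of 8 epithelial markers, EPCAM, KRT19, CLDN3 and CLDN7, had under 10 normalized counts in every library, CDH1 and CLDN4 had at most 13.8 and 22, and KRT8 and KRT18 were clearly expressed, at 151 to 233 and 773 to 1473. The 5 mesenchymal markers were abundant throughout. In GFP cells KRT18 had 933 to 1061 normalized counts with Cyss and 1152 to 1473 without, and 773 to 830 and 1140 to 1337 in NRF2 cells, and its part in the results was not tested. Replicate 3 of GFP cells without Cyss stood apart from its group, at 4.81 on the first principal component against -6.91 and -4.21, on the side of the NRF2 libraries without Cyss, at 19.6 to 21.7. Replicate 1 of NRF2 cells without Cyss also differed from its group, with 7.84% of its reads outside genes against 6.30% and 6.25%, and 7.67 on the second component against 1.29 and -0.998. Results that leaving out either library changes are given below without it.

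Deprivation of Cyss raised most of these carriers, and 1 of them was called higher in NRF2 than in GFP cells with Cyss. A gene was called when its adjusted p was under 0.1 and its log2FC (the fitted log2 fold change) exceeded 0.32 in size, in the quasi-likelihood test of edgeR, adjusted by Benjamini and Hochberg's method over all genes tested. In GFP cells without against with Cyss, 6 of the 10 were raised and 0 lowered, whereas 2.10% of all tested genes were called, 1.57% raised and 0.533% lowered. The median log2FC of the 10 was 0.54, beside 0.0015 for all genes. In NRF2 cells, 8 of the 10 were raised and 0 lowered, against 11.9% of tested genes called, 6.81% raised and 5.14% lowered, and their median log2FC was 0.58 beside -0.012 for all genes. Scaling by library size alone instead of TMM turned the split of all genes in NRF2 cells to 5.42% raised and 8.08% lowered, while the members gave 8 and 0 again. These counts of 6 and 8 stayed the same when any single library was left out. Because the list was chosen with earlier results of these data known, its counts and medians beside those of all genes are descriptive. With Cyss, NRF2 cells exceeded GFP cells in 1 member, SLC7A11, where 1.56% of all genes were called and 1.36% raised. SLC3A2 (log2FC 0.13, adjusted p = 0.0695), SLC1A5 (0.18, adjusted p = 0.00784) and SLC6A9 (0.19, adjusted p = 0.0409) were also higher there in edgeR's test, below the fold threshold. At an adjusted p under 0.1, 0 members were lower. Without Cyss, NRF2 cells exceeded GFP cells in 3 members, SLC7A11, SLC7A1 and SLC7A2, where 10.1% of all genes were called and 5.98% raised. That count was 2 without replicate 1 of either deprived group, where SLC7A1 was lost. In each of these last comparisons 0 of the 10 members were lowered, against 0.201% of all genes with Cyss and 4.09% without. Of the members that did not count as lowered, 0 had an unadjusted p under 0.05 and a lower level without Cyss in either population, and 1 with Cyss and 2 without had one in NRF2 against GFP cells. Of all genes, in either direction, 3160 of 17452 had an unadjusted p under 0.05 for deprivation in GFP cells and 5887 of 17266 in NRF2 cells. Between the populations, 3321 of 17449 had one with Cyss and 5962 of 17297 without. DESeq2's Wald test also lowered 0 members in all 4 comparisons.

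The promoters of the carriers were searched for the core letters of the element that ATF4 and C/EBP factors bind, TGATGNAA, and of the antioxidant response element bound by NRF2, TGACNNNGC. RefSeq windows (GRCh38.p14) that run from 250 bases before to 50 bases after each annotated start held 8 of the 10 members, in 14 windows. These were all but SLC7A11 and SLC7A2. TGATGNAA or its reverse complement occurred in 3.62% of all 35116 windows and in 5 of the 14 member windows. Counted by gene, 4.46% of all 27305 genes and 5 of the 8 members had such a window. The matching stretches of 30 bases are shown on the gene's strand, 5′ to 3′, with the matching letters in capitals, because their shared core is what the 5 genes have in common.
SLC1A4 (chr2:64989381-64989410, plus strand): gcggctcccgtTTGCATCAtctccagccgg
SLC1A5 (chr19:46784893-46784922, minus strand): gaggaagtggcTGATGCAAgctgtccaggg
SLC38A1 (chr12:46266502-46266531, minus strand): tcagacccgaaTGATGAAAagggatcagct
SLC3A2 (chr11:62881719-62881748, plus strand): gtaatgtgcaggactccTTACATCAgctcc
SLC7A1 (chr13:29595663-29595692, minus strand): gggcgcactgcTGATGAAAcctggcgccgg
SLC1A4 and SLC3A2 carry the core on the other strand, which is why their capitals read as its reverse complement. The cores of SLC1A4 and SLC38A1 span the annotated start, those of SLC3A2 and SLC7A1 lie after it, and that of SLC1A5 lies before one of its alternative starts. The windows of SLC7A5, SLC38A2 and SLC6A9 did not hold these letters.

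The antioxidant element core is shown because NRF2 is the factor over-expressed here. TGACNNNGC, on either strand, occurred in 13.3% of all windows and in 4 of the 14 member windows. Counted by gene, 16.1% of all genes and 4 of the 8 members had such a window.
SLC3A2 (chr11:62881651-62881680, plus strand): acgagggtgggTGACTCAGCgtcctccttc
SLC7A5 (chr16:87869491-87869520, minus strand): ggcggggttccTGACGCAGCtgcgggcggc
SLC7A1 (chr13:29595755-29595784, minus strand): gtgcccggcggTGACGCGGCcgagcgggcc
SLC1A5 (chr19:46787386-46787415, minus strand): tcctggatcttGCGAGGTCAgctcccgctc
SLC3A2 and SLC7A1 held both cores in 1 window, without overlap between them, whereas those of SLC1A5 lay in separate windows at different annotated starts. A match to a core describes the letters in the window and is no evidence that a factor binds there.

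SLC7A11 (hg19, chr4:139085251-139163503, minus strand), the cystine-specific light chain of system xc-, stood at 5834, 4707 and 4888 normalized counts in supplied GFP cells and at 5061, 4755 and 5245 without Cyss. NRF2 cells had 8435, 8141 and 7441 with Cyss and 8525, 8179 and 7014 without. All 6 NRF2 libraries were above all 6 GFP libraries, and within each population the libraries with and without Cyss overlapped. NRF2 against GFP cells gave a log2FC of 0.64 with Cyss (SE 0.064, adjusted p = 1.45e-05) and also 0.64 without (SE 0.069, adjusted p = 2.84e-04), a 1.56-fold level in both. Deprivation of Cyss itself gave a log2FC of -0.04 in GFP cells (SE 0.069, adjusted p = 0.826) and -0.02 in NRF2 cells (SE 0.068, adjusted p = 0.865). Their signs changed when some of the libraries were left out, with ranges of -0.10 to 0.07 and -0.08 to 0.06. Of the 10 carriers, SLC7A11 was thus the one called higher in NRF2 than in GFP cells in both media. No response of SLC7A11 to Cyss was detected in either population. The paper reports that NRF2 protein falls in this line without Cyss, and that exogenous full-length NRF2 is sensitive to deprivation as well. Whether SLC7A11 follows the level of NRF2 protein was not tested.

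The reads of SLC7A11 were counted without regard to strand, and 865 bases of its exons are shared with SLC7A11-AS1 on the opposite strand. SLC7A11-AS1 had 52.2 to 141 normalized counts per library, far below SLC7A11. The antisense RNA was also higher in NRF2 than in GFP cells with Cyss, with a log2FC of 0.86 (SE 0.15, adjusted p = 0.0046), and in GFP cells it rose without Cyss by 0.63 (SE 0.14, adjusted p = 0.0252). Since strand was not kept, reads of this pair cannot be told apart within the shared bases. Reads that fitted both genes were set aside as ambiguous and are missing from both counts, while the shared bases remain in the exon length.

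SLC3A2 (hg19, chr11:62623476-62656352), the heavy chain without which the light chains do not reach the membrane, had 18084, 19702 and 18073 normalized counts in GFP cells supplied with Cyss and 25370, 26748 and 26701 without. NRF2 cells had 20111, 20366 and 20737 with Cyss and 22192, 23609 and 25575 without. The deprived libraries were above the supplied ones in both populations, and the step was wider in GFP cells. It rose in GFP cells with a log2FC of 0.50 (SE 0.041, adjusted p = 6.45e-06). In NRF2 cells the log2FC was 0.22 (SE 0.050, adjusted p = 0.00586), below the fold threshold. The difference between these responses, tested as an interaction over all 12 libraries, was -0.28 (SE 0.068, adjusted p = 0.018).

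SLC7A5 (hg19, chr16:87863629-87903113, minus strand), the light chain for large neutral amino acids, ranged from 34712 to 36108 normalized counts in GFP cells supplied with Cyss and from 52091 to 53052 without. The NRF2 libraries ranged from 36158 to 38382 with Cyss and from 53683 to 56500 without. The groups with and without Cyss were far apart and the populations close together. The rise was 1.49-fold in both, with a log2FC of 0.58 in GFP cells (SE 0.032, adjusted p = 1.13e-07) and 0.58 in NRF2 cells (SE 0.044, adjusted p = 2.68e-07). The interaction was 0.001 with an SE of 0.051 (adjusted p = 0.993). Of its near copies, SLC7A5P1 had 12.2 to 31.6 normalized counts and SLC7A5P2 had 0. Reads without a unique alignment were left out of all counts, so these values do not show how many reads SLC7A5 lost to its copies.

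**Figure D1:**
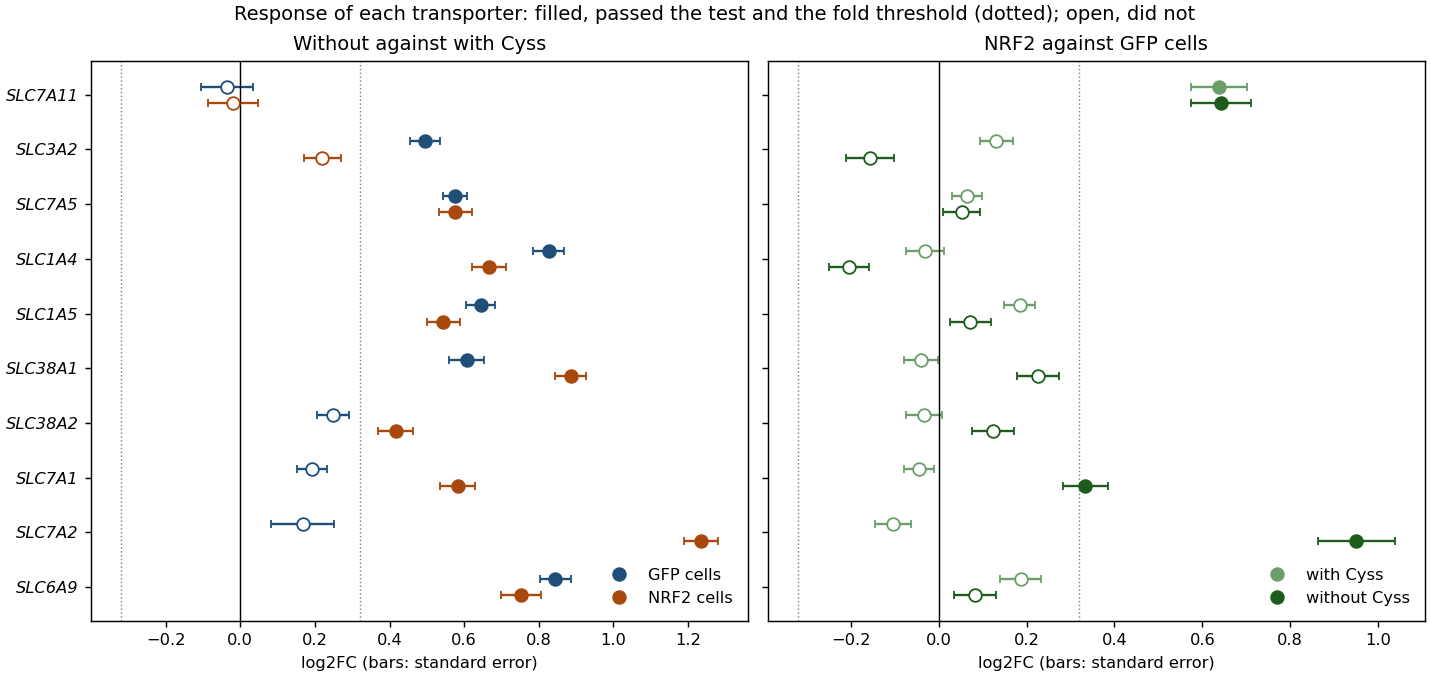
Fitted log2FC (horizontal axes, with standard errors) of the 10 carriers without against with Cyss (left) and in NRF2 against GFP cells (right), where filled points were called and dotted lines mark the fold threshold of 0.32. SLC7A11 sits near 0 on the left and at 0.64 in both media on the right, and SLC7A2 moves from 0.17 in GFP cells to 1.23 in NRF2 cells.

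SLC7A11 competes for SLC3A2 with other light chains, so its share among the 6 that pair with it (SLC7A5, SLC7A6, SLC7A7, SLC7A8, SLC7A10 and SLC7A11) was computed from reads per kb of exon. SLC7A11 made up 6.52% ± 0.763 (SD, n = 3) of these light-chain reads per kb in GFP cells with Cyss and 4.42% ± 0.204 without. The share was 9.41% ± 0.401 in NRF2 cells with Cyss and 6.50% ± 0.607 without. In both populations every library without Cyss had a lower share than every library with Cyss, and at either level of Cyss every NRF2 library exceeded every GFP library. The differences were -2.11 and -2.90 percentage points for deprivation in GFP and NRF2 cells, and 2.88 and 2.08 points for NRF2 with and without Cyss. Each had p = 0.1 in a two-sided exact permutation test, which is the smallest that 3 against 3 libraries allow. SLC7A5 was the bulk of the light chains, at 87.9 to 93.9% of them as group means, so the share of SLC7A11 fell without Cyss while its own level showed no detectable change.

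The sum of the 6 light chains over SLC3A2, also per kb, was 2.81 ± 0.109 (SD, n = 3) in GFP cells with Cyss and 2.87 ± 0.0645 without. In NRF2 cells it was 2.76 ± 0.135 with Cyss and 3.40 ± 0.304 without. The groups overlapped in GFP cells (p = 0.5, exact permutation test). In NRF2 cells all libraries without Cyss were above those with Cyss (p = 0.1, exact permutation test, the smallest possible). These are ratios of reads per kb of exons merged over all transcripts of a gene, which can be longer than the transcripts expressed. Their size is therefore not a number of transcripts, and neither protein nor transport was measured.

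SLC1A4 (hg19, chr2:65215611-65250999), a sodium-dependent exchanger of alanine, serine, cysteine and threonine, had 2015, 2144 and 2151 normalized counts in GFP cells supplied with Cyss and 3856, 3674 and 3675 without. NRF2 cells had 2089, 2091 and 2002 with Cyss and 3305, 3268 and 3245 without. Without Cyss both populations were higher, and the NRF2 libraries stayed below the GFP ones. It rose 1.77-fold in GFP cells (log2FC 0.83, SE 0.042, adjusted p = 4.87e-08) and 1.59-fold in NRF2 cells (log2FC 0.67, SE 0.046, adjusted p = 8.65e-08). The responses differed by -0.16 (SE 0.059, adjusted p = 0.0936), a difference that missed the threshold when any of 9 of the 12 libraries was left out in turn. Without Cyss, NRF2 against GFP cells gave -0.20 (adjusted p = 0.00864), below the fold threshold.

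SLC1A5, the glutamine exchanger of the same family (hg19, chr19:47278140-47291851, minus strand), ranged from 9493 to 10027 normalized counts in GFP cells supplied with Cyss and from 14611 to 15516 without. In NRF2 cells the ranges were 10738 to 11253 and 15480 to 16633. Its rise was 1.56-fold in GFP cells (log2FC 0.64, SE 0.038, adjusted p = 2.11e-07) and 1.46-fold in NRF2 cells (log2FC 0.54, SE 0.044, adjusted p = 5.08e-07). With Cyss, NRF2 cells exceeded GFP cells by 0.18 (SE 0.036, adjusted p = 0.00784), without overlap between the libraries but below the fold threshold.

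The sodium-coupled carriers SLC38A1 and SLC38A2, which load cells with glutamine, alanine and other small neutral amino acids, lie near each other on chromosome 12. SLC38A1 had 12640, 11531 and 11769 normalized counts in GFP cells supplied with Cyss and 18004, 17461 and 19313 without. The NRF2 libraries had 11715, 11921 and 11346 with Cyss and 21643, 21776 and 21275 without. The 4 groups formed a low pair with Cyss and 2 separate higher levels without, NRF2 cells above GFP cells. The rise was 1.52-fold in GFP cells (log2FC 0.61, SE 0.046, adjusted p = 2.94e-06) and 1.85-fold in NRF2 cells (log2FC 0.89, SE 0.042, adjusted p = 2.79e-09). The difference between the responses was 0.28 (SE 0.062, adjusted p = 0.00943).

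SLC38A2 ranged from 17022 to 18881 normalized counts in GFP cells supplied with Cyss and from 20677 to 22189 without. The NRF2 libraries ranged from 16887 to 18298 and from 22494 to 24144. The supplied and deprived libraries did not overlap in either population. The log2FC was 0.25 in GFP cells (SE 0.043, adjusted p = 0.0055), below the fold threshold, and 0.42 in NRF2 cells (SE 0.047, adjusted p = 1.46e-05), where it rose. The responses differed by 0.17 (SE 0.065, adjusted p = 0.111), which did not pass, though it passed when 3 of the 12 libraries were each left out, replicate 3 of NRF2 cells without Cyss (0.20), replicate 2 of GFP cells with Cyss (0.21) and replicate 3 of GFP cells without Cyss (0.20).

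The cationic carriers SLC7A1 and SLC7A2, which take up arginine, lysine and ornithine and need no heavy chain, gave the largest positive interactions of the 10. SLC7A1 (hg19, chr13:30083551-30169825, minus strand) had 8393, 8238 and 8347 normalized counts in GFP cells supplied with Cyss and 9169, 9321 and 10063 without. The NRF2 libraries had 8364, 7950 and 7913 with Cyss and 12586, 11692 and 12030 without. The supplied groups overlapped, and the deprived NRF2 libraries lay above all others. The log2FC of deprivation was 0.19 in GFP cells (SE 0.040, adjusted p = 0.0197), below the fold threshold, and 0.58 in NRF2 cells (SE 0.046, adjusted p = 4.02e-07). The interaction was 0.39 (SE 0.061, adjusted p = 9.65e-04). Without Cyss, NRF2 cells exceeded GFP cells by 0.33 (SE 0.051, adjusted p = 0.00129), a value close to the fold threshold that came to 0.31 without replicate 1 of NRF2 cells without Cyss and to 0.31 without replicate 1 of GFP cells without Cyss, and to 0.30 with library size alone.

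SLC7A2 had 3074, 2811 and 2975 normalized counts in GFP cells supplied with Cyss and 2790, 3351 and 3821 without. NRF2 cells had 2793, 2734 and 2721 with Cyss and 6273, 6447 and 6700 without. Only the NRF2 libraries without Cyss stood clear of the rest, and the GFP libraries overlapped and were the more spread without Cyss. The rise in NRF2 cells was 2.35-fold (log2FC 1.23, SE 0.046, adjusted p = 1.92e-10). In GFP cells the log2FC was 0.17 (SE 0.084, adjusted p = 0.318), and 0.06 without replicate 3 of GFP cells without Cyss, the library that stood apart and held the highest of these values. The responses differed by 1.07 (SE 0.105, adjusted p = 1.12e-04), which ranked 1 of 17674 genes tested by its p, and by 1.18 without that library. NRF2 against GFP cells gave 0.95 without Cyss (SE 0.087, adjusted p = 1.29e-04) and -0.10 with Cyss (SE 0.042, adjusted p = 0.188).

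SLC6A9 (hg19, chr1:44457172-44497139, minus strand), the sodium- and chloride-dependent glycine carrier GLYT1, had 1537, 1585 and 1551 normalized counts in GFP cells supplied with Cyss and 2774, 2880 and 2747 without. NRF2 cells had 1896, 1684 and 1747 with Cyss and 3067, 2891 and 3019 without. The deprived libraries were above the supplied ones by a wide margin in both populations. In GFP cells it rose 1.80-fold (log2FC 0.84, SE 0.041, adjusted p = 3.72e-08), the highest estimate of the 10. That of SLC1A4 was within its SE, at 1.77-fold (log2FC 0.83, SE 0.042). In NRF2 cells SLC6A9 rose 1.68-fold (log2FC 0.75, SE 0.054, adjusted p = 1.36e-07). The interaction was -0.09 (SE 0.066, adjusted p = 0.421). SLC6A9 shares 413 exonic bases with CCDC24 on the opposite strand, which had 96.9 to 174 normalized counts. Reads that fitted both of these genes were likewise left out. Without Cyss the log2FC of CCDC24 was 0.01 in GFP cells (adjusted p = 0.975), and it fell by 0.38 on the log2 scale in NRF2 cells (SE 0.14, adjusted p = 0.0716).

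Across the interaction as a whole, 3 of the 10 members (SLC7A1, SLC7A2 and SLC38A1) responded more in NRF2 than in GFP cells, against 8.97% of all genes tested, and 2 (SLC3A2 and SLC1A4) responded less, against 6.13%, with 15.1% of all genes called. With library size alone these shares were 6.36% and 11.2%, and the members gave 3 and 3, SLC1A5 being added to those that responded less. The median interaction of the 10 was 0.01, beside -0.013 for all genes. The members thus moved in both directions, and those that responded more included both cationic carriers.

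**Figure D2:**
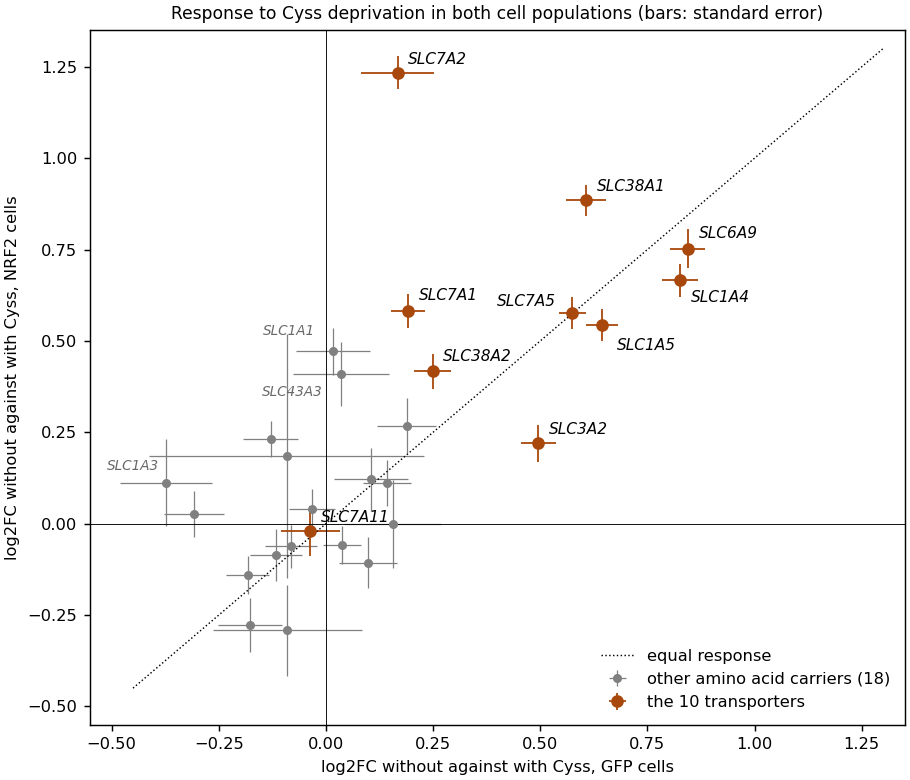
Fitted log2FC without against with Cyss in GFP cells (horizontal axis) and in NRF2 cells (vertical axis), with standard errors, for the 10 carriers and for the 18 other amino acid carriers tested in both populations. SLC7A2 (0.17 and 1.23), SLC7A1 (0.19 and 0.58) and SLC38A1 (0.61 and 0.89) lie above the line of equal response, SLC3A2 (0.50 and 0.22) and SLC1A4 (0.83 and 0.67) below it, and SLC7A11 near the origin.

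A list of 44 other amino acid carriers gave the setting for these values. Of these, 26 had a mean under 10 normalized counts in every group, 3 of them with 0 reads in all libraries. In GFP cells 19 could be tested, of which 0 were raised and 1 was lowered without Cyss, with a median log2FC of -0.03. At an unadjusted p under 0.05, 2 were higher and 4 lower, and DESeq2's Wald test raised 0 and lowered 0. Of all genes tested in GFP cells, 1.57% were raised and 0.533% lowered, and 3160 of 17452 had an unadjusted p under 0.05. In NRF2 cells 18 could be tested, of which 2 were raised and 0 lowered, with a median of 0.03, while 4 were higher and 3 lower at an unadjusted p under 0.05, and DESeq2 gave 2 and 0. Of all genes tested there, 6.81% were raised and 5.14% lowered, and 5887 of 17266 had an unadjusted p under 0.05. With Cyss, 0 of 18 were called between the populations by the tests of edgeR and DESeq2, and 2 were higher in NRF2 cells at an unadjusted p under 0.05. Of all genes, edgeR called 1.56% in that comparison, and 3321 of 17449 had an unadjusted p under 0.05. Without Cyss, NRF2 cells exceeded GFP cells in 5 of 18, against 5.98% of all genes, and the interaction was higher in 4 of 18, against 8.97%. Both lists were chosen with earlier results of these data known, and the difference between them was not tested.

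SLC1A1, a glutamate carrier that also takes up cysteine, had the largest difference of these carriers between any pair of groups, a log2FC of 0.48 in NRF2 against GFP cells without Cyss (SE 0.098, adjusted p = 0.00565). It had 988 to 1310 normalized counts in GFP cells without Cyss and 1431 to 1710 in NRF2 cells without Cyss, and these libraries did not overlap. Its log2FC without against with Cyss was 0.02 in GFP cells (SE 0.086, adjusted p = 0.945), or -0.12 without replicate 3 of GFP cells without Cyss, and 0.47 in NRF2 cells (SE 0.064, adjusted p = 7.95e-05). SLC43A3, a purine nucleobase carrier of an amino acid carrier family, rose in NRF2 cells by 0.41 (SE 0.088, adjusted p = 0.0039). SLC1A3, a glutamate and aspartate carrier at only 85.0 to 121 normalized counts, fell in GFP cells by 0.37 on the log2 scale (SE 0.11, adjusted p = 0.0834), a call that was lost when any single library was left out. The lysosomal carriers SLC36A1 and SLC36A4 exceeded the GFP level in NRF2 cells without Cyss by 0.37 (adjusted p = 0.00337) and 0.36 (adjusted p = 0.00264). For SLC36A4 the log2FC without against with Cyss was -0.31 in GFP cells (adjusted p = 0.0307) and 0.03 in NRF2 cells (adjusted p = 0.801). For SLC36A1 these values were -0.13 (adjusted p = 0.317) and 0.23 (adjusted p = 0.00374). SLC43A3 and SLC1A3 also exceeded the GFP level without Cyss, by 0.41 and 0.33. With each library left out in turn, they were called in 4 and 2 of 6 fits.

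Between genes, levels were compared as reads per kb of exon, scaled to library size by TMM over the 12 libraries, with exon lengths merged over the transcripts of each gene. A merged length can exceed that of the transcripts expressed, which lowers the level of a gene. The order between genes thus depends on these lengths, such as 6392 bases for SLC3A2 and 4764 for SLC7A5. SLC7A5 was the highest of the 10 in all 4 groups, at 220.6 ± 4.49 (SD, n = 3) in GFP cells with Cyss, against 86.7 ± 4.37 for SLC3A2, the next. SLC3A2, SLC1A5 and SLC38A2 overlapped as neighbours in that group, as did SLC1A4 and SLC6A9 at the low end, at 9.02 ± 0.327 and 8.83 ± 0.142. SLC7A11 had rank 7 of 10, at 15.9 ± 1.87. Without Cyss it had rank 9 in GFP cells, at 15.5 ± 0.764, where its libraries overlapped with those of SLC6A9 and SLC1A4. Ranks 7 to 9 were therefore not told apart in that group. In NRF2 cells SLC7A11 had rank 7 in both media, at 24.7 ± 1.58 with Cyss and 24.4 ± 2.44 without, and in the latter group SLC7A2 overlapped with it, at 24.4 ± 0.81.

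The pattern of SLC7A11 over the 12 libraries was compared with that of the 13528 genes whose mean normalized count was 50 or more, by the root mean square difference of log2 levels relative to GFP cells with Cyss. The 5 nearest were ADAMTS14 (0.155), MAP2 (0.162), CYP26B1 (0.164), ABCC3 (0.184) and AKR1B1P2 (0.189), the last a near copy of AKR1B1 whose reads may be split between them. The nearest of the other 9 members was SLC7A1, which had rank 1416 at 0.375. By the same measure SLC7A5 and SLC1A5 were each other's nearest member, at 0.0899, and SLC7A1 and SLC38A2 likewise, at 0.092. SLC7A11 therefore stood farther from the rest of the list than any other member, the next being SLC7A2 at 0.281 from SLC38A1.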

How the data were processed

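mRNA libraries (TruSeq, which does not mark strand) were sequenced single-end. The authors mapped reads to hg19 with TopHat2 2.1.0, counted them on exons with HTSeq 0.11.2 without regard to strand, and deposited the raw counts of 55765 gene symbols in each of the 12 libraries. The annotation version is not given in the sources used here. Reads not assigned to a gene (15.9 to 17.1% per library) and 523 rRNA genes were left out. For each pair of groups, 6 libraries were scaled by TMM, genes that averaged 10 or more normalized counts in 1 of the groups were kept and scaled again, and the quasi-likelihood test of edgeR 4.0.16 was fitted in R 4.3.3, adjusted by Benjamini and Hochberg's method. The interaction used all 12 libraries and an adjusted p under 0.1 with no fold threshold. The study used DESeq2, run here as an alternative (1.42.0). Printed levels are counts scaled by TMM over 12 libraries. The tests were checked on simulated data. Positions and exon lengths came from GENCODE on GRCh37, and promoters from RefSeq. The 10 members and the 44 other carriers were chosen with earlier results of these data known. The text names all members, the other carriers called between any pair of groups, NFE2L2, near copies and antisense partners, and the 5 genes nearest to SLC7A11. The partners were added after their values were seen.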

Additional observations from a re-analysis of the deposited data

Results flagged for a closer look

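For 5 of the 10 members and 4 of the 18 other carriers tested, the response to Cyss deprivation differed between NRF2 and GFP cells in a test of the difference itself, edgeR's interaction over 12 libraries with adjusted p under 0.1, which called 15.1% of all genes. Among the members, the difference (NRF2 minus GFP cells, log2 scale) was 1.07 for SLC7A2, 0.39 for SLC7A1 and 0.28 for SLC38A1, each of which responded more in NRF2 cells. It was -0.28 for SLC3A2 and -0.16 for SLC1A4, which responded less. Among the other carriers it was 0.46 for SLC1A1, 0.49 for SLC1A3, 0.36 for SLC36A1 and 0.33 for SLC36A4. Leaving out each library in turn gave 0.95 to 1.18 for SLC7A2, 0.36 to 0.43 for SLC7A1, 0.24 to 0.32 for SLC38A1 and -0.33 to -0.23 for SLC3A2, all called each time, whereas SLC1A4 was called in 3 of 12 such fits, SLC36A4 in 8 and SLC1A3 in 10.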

How the results depend on the processing

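The counts of members raised without Cyss were 6 in GFP cells and 8 in NRF2 cells under DESeq2 size factors, DESeq2's Wald test, library size alone, other filters, all 12 libraries in 1 fit, an adjusted p under 0.05 and each library left out, and 8 and 9 with no fold threshold. Without a fold threshold NRF2 cells exceeded GFP cells in 4 members and 2 other carriers with Cyss, and without Cyss in 5 members, with 2 lowered. At that setting the other carriers gave 3 lowered in GFP cells and 4 raised and 2 lowered in NRF2 cells without Cyss. Removing the threshold also raises the number called among all genes. That share is not given here, so these counts cannot be set against it. Members with a lower response in NRF2 cells numbered 1 by DESeq2's Wald test, with no filter and at an adjusted p under 0.05, and 1 to 2 with a library left out. The count of other carriers lowered in GFP cells, 1 for SLC1A3, became 0 by DESeq2's Wald test and at an adjusted p under 0.05. With a library left out the count was 0 to 1, but SLC1A3 was called in 0 of 6 such fits. SLC36A4, not called with all libraries, stayed uncalled in 3 of these 6 fits and was called lowered in the others. With library size alone, 2 other carriers were lowered in NRF2 cells and 1 responded less than in GFP cells. Leaving out libraries gave 0 to 1 other carriers lowered in NRF2 cells and 3 to 5 raised in NRF2 against GFP cells without Cyss. In raw reads the share of SLC7A11 among the light chains moved by -3.72 and -4.91 points without Cyss in GFP and NRF2 cells, and by 4.94 and 3.75 points in NRF2 cells with and without Cyss, since the exons of SLC7A11 are longer than those of SLC7A5. The cause of the other changes was not tested.

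Signs turned in values that were not called. With library size alone, log2FC was -0.032 for SLC36A4 without Cyss in NRF2 cells, and the interaction was -0.036 for SLC7A11 and -0.051 for SLC7A5. With each library left out in turn, log2FC without Cyss in GFP cells ran from -0.097 to 0.068 for SLC7A11, from -0.12 to 0.093 for SLC1A1 and from -0.060 to 0.18 for SLC43A3. In NRF2 cells it ran from -0.075 to 0.061 for SLC7A11 and from -0.015 to 0.097 for SLC36A4. NRF2 against GFP cells with Cyss ran from -0.025 to 0.088 for SLC43A3, from -0.069 to 6.4e-05 for SLC38A1, from -0.073 to 0.0032 for SLC38A2 and from -0.038 to 0.13 for SLC36A4. The interaction ran from -0.084 to 0.095 for SLC7A11 and from -0.020 to 0.023 for SLC7A5.

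The replicate numbers in the labels were tested as a block. Deviations of same-numbered libraries correlated from -0.161 to 0.248, so the numbers were not taken as a pairing. With the replicate block, 6 and 8 members were raised without Cyss in GFP and NRF2 cells, and 4 responded more in NRF2 cells, SLC38A2 being added (it was also added with no filter, and in 3 of 12 fits with a library left out).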
